A study of Homo sapiens with 4 samples.

Results

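The 10 genes described here encode chemokines, small secreted proteins that direct the migration of leukocytes. They are CCL20, CCL2, CCL5 and CCL28 of the CC class and CXCL1, CXCL2, CXCL3, CXCL8, CXCL10 and CXCL11 of the CXC class. A gene was taken through the probe sets of the array whose annotation gives that gene's symbol and no other, which gave all 10 genes among the 18132 that have such a probe set. The list was proposed with the results of these arrays known, and CCL20 and CXCL10 were chosen by their intensities on these 4 arrays, for large rises in the mimic group. For that reason the differences of the 10 genes between the groups are given as descriptions, with no test.

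The cells were SCC-9, an established human line from a squamous cell carcinoma of the tongue. One group was transfected with a synthetic mimic of the microRNA miR-585-5p and the other with miR-NC, a control small RNA, and both agents were used at 30 nM. Cells were transfected 24 hours after seeding and collected 36 hours after transfection, and 2 ug of total RNA went into the labelling for an Affymetrix PrimeView array. There were 2 arrays of the mimic group and 2 of the miR-NC group. No untransfected cells were analysed here, so an effect that both small RNAs share cannot be seen, and all values come from 1 cell line.

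Chemokines bind receptors on the target cell that signal through G proteins. CCL20 is the ligand of CCR6, which is carried by dendritic cell precursors, B cells and some helper T cells. CXCL1, CXCL2, CXCL3 and CXCL8 attract neutrophils through CXCR2, while CXCL10 and CXCL11 are interferon-induced ligands of CXCR3 on activated T cells and natural killer cells. Epithelial cells, those of the oral mucosa among them, make several of these proteins after cytokines or microbial products activate the transcription factor NF-kB, and their messenger RNAs are short-lived because AU-rich elements mark them for decay.

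The transfected microRNA is shown because its seed, the stretch that pairs with target transcripts, is what sets one mimic apart from another. The mature sequence of hsa-miR-585-5p has 22 bases and lies at chr5:169263649-169263670 on the minus strand (RefSeq, GRCh38.p14), where its gene MIR585 sits within the span of SLIT3. Capitals mark the seed, bases 2 to 8.
hsa-miR-585-5p: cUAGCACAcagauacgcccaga
No probe set of the array measures this microRNA, so its level in the cells was not checked, and sites for the seed in the chemokine transcripts were not searched for here.

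Values are the deposited intensities of the probe sets, which are linear values from a robust multi-array average (RMA), and a log2 change is the mean log2 value of the mimic arrays minus that of the miR-NC arrays. The median intensity was 31.1 and 30.6 on the mimic arrays, against 31.3 and 30.7 on the miR-NC arrays, and the correlation across probe sets was 0.998 between the mimic arrays and 0.997 between the miR-NC arrays. The array holds 20 control probe sets with no human target, the brightest of them at 14.2 and 15.0 on the mimic arrays, against 16.8 and 14.2 on the miR-NC arrays, and a gene is called above them on an array where it exceeds the brightest. Each gene was read through its brightest probe set, limma was run on the 14123 genes that were brighter on average than the 30th percentile, and 7768 passed an adjusted p of 0.05, which is 55.0% of the genes tested, with 28.1% higher and 26.9% lower. Most genes tested thus passed, and a call by itself sets no gene apart here. The poly(A) spikes, control RNAs that go through the labelling with the sample, were on average 0.35 (log2) higher on the mimic arrays, and after scaling to them the median log2 change of all genes tested was -0.40 in place of -0.06, with 16.4% of the calls higher in place of 51.1%. Whether the arrays of 1 group stem from different cultures is not in the labels, so p-values and SEs cover only the spread of these samples, which may be technical, and 2 arrays per group limit the precision.

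Of the 10 chemokine genes 8 were bright enough to be tested. In the fit 5 were higher in the mimic group (CCL20, CXCL10, CXCL8, CCL2 and CXCL2), 0 were lower and 3 did not pass (CXCL3, CXCL1 and CCL5), beside 28.1% higher and 26.9% lower among all genes tested. The mimic arrays lay above both miR-NC arrays for those 5 genes and below both for CCL5, and the groups overlapped for CXCL3 and CXCL1. Among all genes tested, the mimic arrays lay wholly above for 36.5%, wholly below for 42.9% and on either side for 79.4%. Nothing is read from these counts, since the same comparison chose the list and since CCL2 passed the filter through its values in the mimic group.

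**Figure D1:**
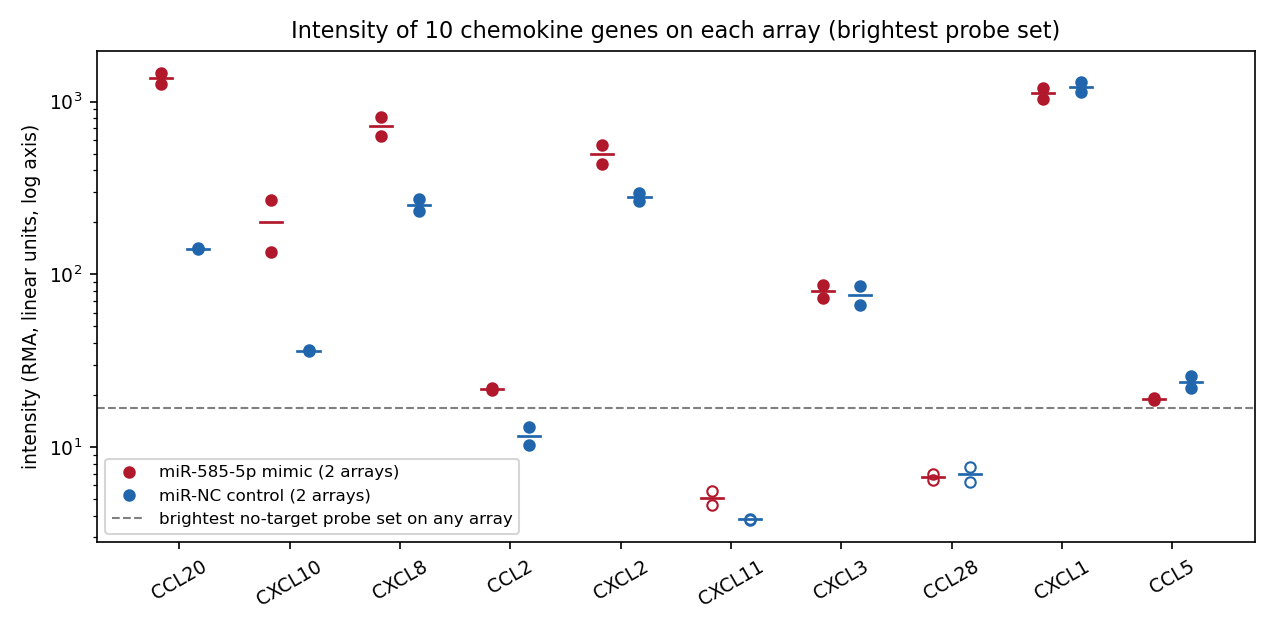
Intensity of the brightest probe set of each of the 10 genes on each array (log axis), with the mimic arrays in red on the left and the miR-NC arrays in blue on the right of each pair, a bar at the mean, and the brightest no-target probe set as a dashed line. Open symbols mark the 2 genes that were not tested. CCL20, CXCL10, CXCL8 and CXCL2 stand apart above the line, the groups of CXCL3 and CXCL1 overlap, and CXCL11 and CCL28 lie below the line on all arrays.

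CCL20, the ligand of CCR6, had the largest rise of the 10 (probe set 11724828_at). It read 1269 and 1461 on the mimic arrays, against 139 and 142 on the miR-NC arrays. Both mimic arrays were far above both miR-NC arrays, and the spread within either group was small beside the distance between them. The means were 1365 ± 135 in the mimic group and 140.5 ± 1.56 in the miR-NC group (SD, n = 2 each), a ratio of 9.69 and a log2 change of 3.28 ± 0.08 (SE). Of the 14123 genes tested, 3 had a larger log2 change. CCL20 has 1 probe set, so no other part of its transcript was read. It is the only one of the 10 that lies on chromosome 2.

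CXCL10, which attracts T cells and natural killer cells through CXCR3, had the next largest rise (probe set 11720298_at). It read 135 and 268 on the mimic arrays, against 35.9 and 36.4 on the miR-NC arrays. Both mimic arrays were above both miR-NC arrays. The mimic arrays lay far from each other, while the miR-NC arrays were almost equal. The means were 202 ± 94.5 in the mimic group and 36.2 ± 0.381 in the miR-NC group (SD, n = 2 each), a ratio of 5.26. The log2 change was 2.40 ± 0.24 (SE), and 35 genes tested had a larger one. It was 2.89 without mimic replicate 1 and 1.90 without mimic replicate 2, so the size of the rise, though not its direction, rests on which mimic array is used. CXCL10 too has 1 probe set.

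CXCL11, the other CXCR3 ligand of the list, read 4.60 and 5.54 on the mimic arrays, against 3.86 and 3.80 on the miR-NC arrays. All 4 values lie below the no-target controls, so the gene was not detected and no ratio is given. Its 2 other probe sets were below them as well. Of the 2 CXCR3 ligands in the list, CXCL10 alone gave a signal above background on these arrays.

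CXCL8, the neutrophil attractant also called interleukin 8, had the largest rise among the CXCR2 ligands by the brightest probe set. Its brightest probe set, 11718841_s_at, read 631 and 813 on the mimic arrays, against 232 and 272 on the miR-NC arrays. The groups were well apart. The means were 722 ± 128 in the mimic group and 252 ± 28.1 in the miR-NC group (SD, n = 2 each), a ratio of 2.85 and a log2 change of 1.51 ± 0.11 (SE). CXCL8 has 2 other probe sets that are far dimmer, and each exceeded the no-target controls on 3 of the 4 arrays. One of them (11763226_x_at) read 19.0 and 30.3 on the mimic arrays, against 13.2 and 15.2 on the miR-NC arrays. The other (11754026_a_at) read 19.1 and 22.1 on the mimic arrays, against 17.1 and 13.7 on the miR-NC arrays. The mimic arrays were higher for both, with log2 changes of 0.76 and 0.42. The size of the rise thus depends on the probe set: the log2 change was 0.90 with the mean of the 3 probe sets and 0.42 without those that the array's naming marks as able to bind other transcripts. CXCL2 was at 0.80 and 0.82 in the same settings. Neither dimmer CXCL8 probe set exceeded the no-target controls on all 4 arrays. These settings therefore cannot decide whether CXCL8 or CXCL2 rose more.

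CXCL2, another neutrophil attractant, had a smaller rise than CXCL8 by the brightest probe set. It read 436 and 562 on the mimic arrays, against 264 and 297 on the miR-NC arrays (probe set 11744127_at). The groups did not overlap. The means were 499 ± 89.2 in the mimic group and 280.5 ± 23.4 in the miR-NC group (SD, n = 2 each), a ratio of 1.77 and a log2 change of 0.82 ± 0.11 (SE). Its other probe set, 11744128_x_at, read 316 and 417 on the mimic arrays, against 208 and 213 on the miR-NC arrays. Both probe sets of CXCL2 gave nearly the same log2 change, with 0.78 for the second.

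CXCL3, a close relative of CXCL2, read 73.1 and 87.2 on the mimic arrays, against 66.6 and 86.0 on the miR-NC arrays (probe set 11728477_at). The groups overlapped, and the spread within each was larger than the distance between their means. The log2 change was 0.08 ± 0.14 (SE), and it was -0.05 without mimic replicate 2 and -0.11 without control replicate 1, so it has no settled direction. Its other probe set, 11728476_a_at, read 39.7 and 49.7 on the mimic arrays, against 35.2 and 39.4 on the miR-NC arrays. There the mimic arrays lay just above the miR-NC arrays, with a log2 change of 0.25.

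CXCL1, which acts on the same receptor, did not follow CXCL8 and CXCL2. It read 1036 and 1200.3 on the mimic arrays, against 1299 and 1135 on the miR-NC arrays (probe set 11719366_s_at). The groups overlapped, and the log2 change was -0.12 ± 0.08 (SE). Its other probe set, 11754114_a_at, read 269 and 279 on the mimic arrays, against 331 and 303 on the miR-NC arrays. In this one the mimic arrays were both lower, with a log2 change of -0.21. A further probe set, which the annotation gives to CXCL1 and CXCL2 together and which therefore counts for neither, read 162 and 169 on the mimic arrays, against 205 and 172 on the miR-NC arrays. It lay on the side of CXCL1 (log2 change -0.18), not on that of CXCL2.

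CCL2, the monocyte attractant that acts through CCR2, was dim. It read 21.3 and 22.1 on the mimic arrays, against 13.1 and 10.2 on the miR-NC arrays (probe set 11716384_at). Both mimic arrays exceeded the no-target controls and neither miR-NC array did, so the miR-NC values are only an upper limit. The measured means were 21.7 ± 0.572 in the mimic group and 11.7 ± 2.05 in the miR-NC group (SD, n = 2 each). Against the brightest no-target probe set of each array, or the gene's own value where that was higher, the mimic group was at least 1.41-fold higher.

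CCL5, which attracts T cells and monocytes, stood on the other side. Its brightest probe set, 11732276_x_at, read 18.8 and 19.1 on the mimic arrays, against 25.7 and 21.9 on the miR-NC arrays. The mimic arrays were both lower, but all 4 values are close to the no-target controls, and the log2 change of -0.32 ± 0.14 (SE) did not pass. Its 2 other probe sets were at -0.20 and -0.11 and did not exceed those controls on all arrays. CCL28, a mucosal chemokine that binds CCR10 and CCR3, read 7.01 and 6.47 on the mimic arrays, against 6.25 and 7.71 on the miR-NC arrays. It was at the level of the no-target controls on every array in both of its probe sets, and no ratio is given.

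**Figure D2:**
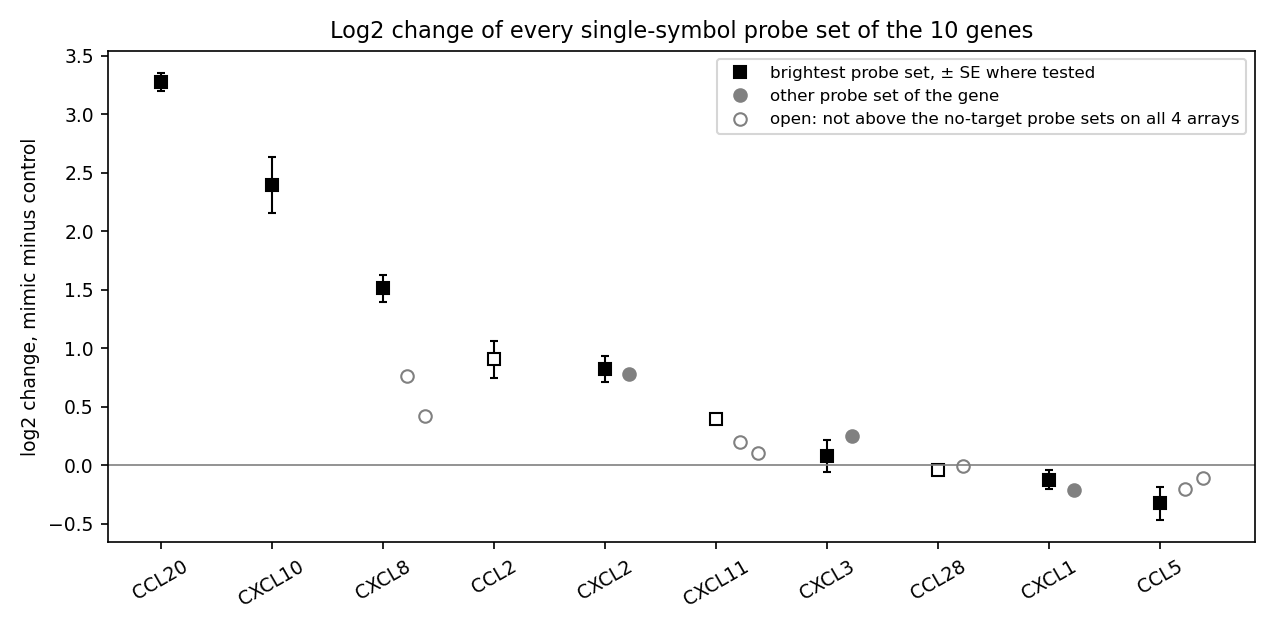
Log2 change, mimic minus miR-NC, of each of the 20 single-symbol probe sets, by gene, with squares for the brightest probe set (± SE where tested), circles for the others, and open symbols for probe sets not above the no-target controls on all 4 arrays. Both probe sets of CXCL2 lie near 0.8, those of CXCL8 are spread between 0.42 and 1.51, and those of CXCL1 and CCL5 lie below 0. The square of CCL2 is a fitted value, since CCL2 was not detected on the miR-NC arrays.

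Within the list, 3 genes have 1 probe set, 4 have 2 and 3 have 3, which makes 20 single-symbol probe sets. Of these, 10 were above the no-target controls on all 4 arrays, and in 6 of the 10 the mimic arrays lay above both miR-NC arrays, in 2 below both and in 2 the groups overlapped. Over all genes tested the groups did not overlap for 79.4%, so nothing is read from this count. By log2 change of the brightest probe set, the 7 tested genes detected in both groups run in the order CCL20, CXCL10, CXCL8, CXCL2, CXCL3, CXCL1 and CCL5. The order is a description of the values that chose the list. CXCL3 and CXCL1, whose groups overlap, have no settled place in it, and CCL2, with a bound only, has none. Without the probe sets marked as able to bind other transcripts, CXCL8 was at 0.42 and CXCL2 at 0.82. The CXCL8 probe set left there was not above the no-target controls on all 4 arrays. That setting therefore cannot settle the order of CXCL8 and CXCL2.

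The sizes above are on the deposited scale, which sets the arrays to 1 distribution. Scaled to the poly(A) spikes instead, CCL20 was at 2.93, CXCL10 at 2.05, CXCL8 at 1.17 and CXCL2 at 0.48 (log2). These 4 genes were above 0 on both scales, and CXCL3 turned to -0.27 beside CXCL1 at -0.47 and CCL5 at -0.67. The hybridization spikes differed by only -0.05, and with them the tested genes kept the direction they have on the deposited scale.

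The CXCR2 ligands are neighbours on chromosome 4. In the gene table of GRCh38.p14 the protein-coding genes of this cluster run CXCL8, CXCL6, PF4V1, CXCL1, PF4, PPBP, CXCL5, CXCL3 and CXCL2. CXCL8 and CXCL2, at the ends of this run, were the genes that were higher in the mimic group, with log2 changes of 1.51 and 0.82. Of the genes between them, CXCL6, PPBP and CXCL5 were at the no-target level on all arrays, and CXCL1, CXCL3, PF4V1 (0.10) and PF4 (-0.34) did not pass. The CXCR3 ligands lie in a separate run on the same chromosome, in the order CXCL9, ART3, CXCL10 and CXCL11. There CXCL10 read 2.40, while ART3 (-0.15) did not pass and CXCL11 was not detected. CXCL9 did not pass either, and it exceeded the no-target controls on 0 mimic arrays and 1 miR-NC array. CCL2 on chromosome 17 is followed by CCL7, CCL11 and CCL8, all at the no-target level on every array. In each of these runs a gene that was higher in the mimic group thus stood next to genes that were not detected or did not pass.

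**Figure D3:**
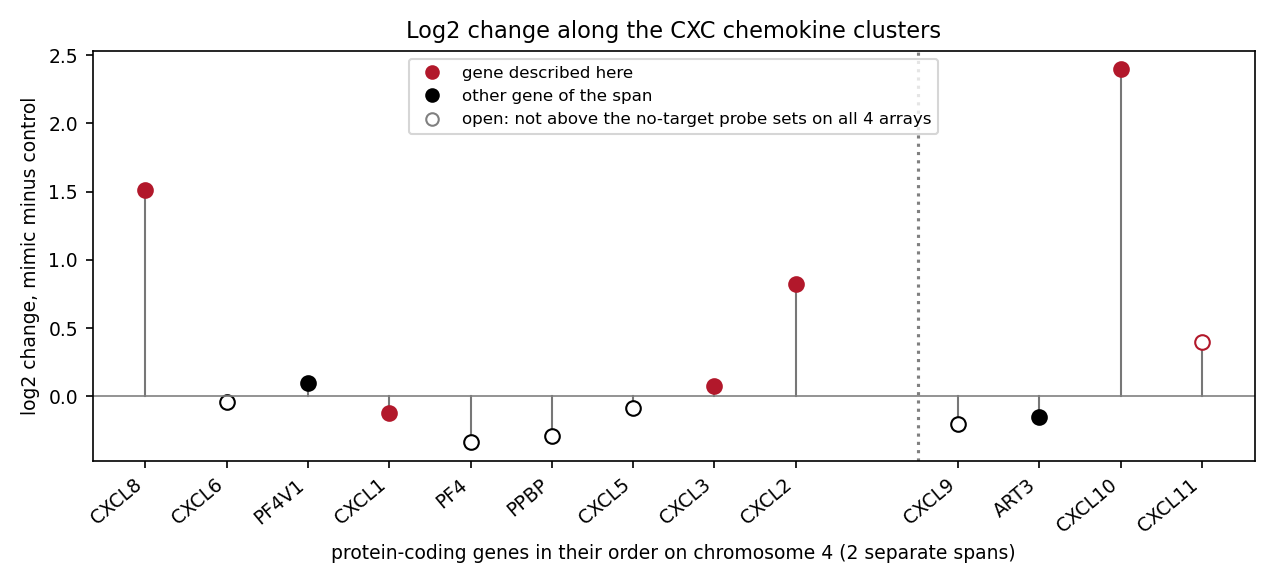
Log2 change, mimic minus miR-NC, of the protein-coding genes of the 2 CXC chemokine runs of chromosome 4, spaced evenly in their genomic order, with the genes described here in red, other genes in black and open symbols for genes not above the no-target controls on all 4 arrays. CXCL8 (1.51) and CXCL2 (0.82) stand at the ends of the first run and CXCL10 (2.40) in the second, and the other genes above the no-target controls on all 4 arrays lie between -0.15 and 0.10. Open symbols are fitted values at background and give no size.

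The arrays of the mimic group differed from each other in some of these genes, most of all in CXCL10. The second mimic array was higher than the first for 8 of the 8 tested genes. It was also higher for 10 of the 10 bright probe sets, which belong to the same genes. Among the dimmer probe sets the difference went in both directions, from -0.19 (CCL5) to 0.67 (CXCL8). Nothing is read from these counts, since CCL20, CXCL10 and CCL2 came in through their values in the mimic group. Over all genes tested the second mimic array was higher for 44.4%, with a median difference of -0.01 (log2). The difference was 0.99 for CXCL10, and 0 of the 14123 genes tested had a larger one in either direction. It was 0.37 for CXCL2, 0.36 for CXCL8, 0.25 for CXCL3, 0.21 for CXCL1 and 0.20 for CCL20. CCL2 (0.05) and CCL5 (0.03) were below the median absolute difference of all genes tested, 0.08. Between the miR-NC arrays the second was higher for 5 of the 8, against 51.8% of all genes tested, and CXCL10 and CCL20 differed by 0.02 each. CXCL14, a chemokine outside the list, went the other way, with 78.8 on the first mimic array and 50.7 on the second. What sets the mimic arrays apart in these genes was not tested.

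**Figure D4:**
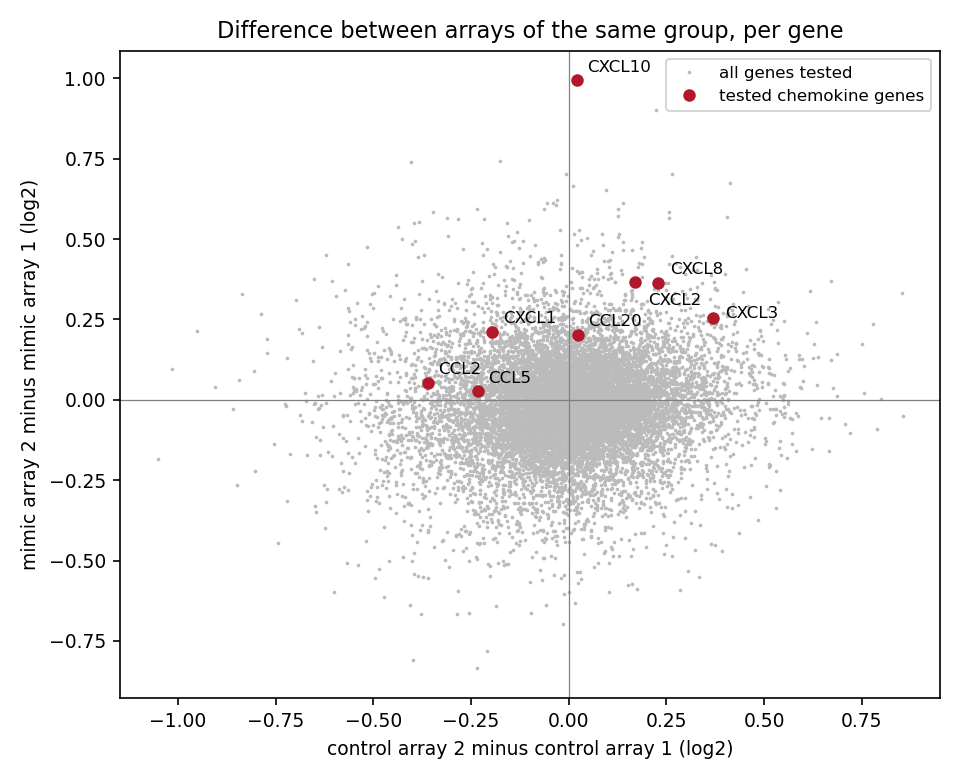
For each gene tested, the log2 difference between the mimic arrays (y axis) and between the miR-NC arrays (x axis), with all genes in grey and the 8 tested chemokine genes in red. All 8 lie above 0 on the y axis, and CXCL10, at 0.99, is the highest point of the plot.

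The cluster genes CXCL1 and CXCL2 share most of their promoter sequence and yet differed in the comparison. CCL20, CXCL10 and CXCL8 had the largest rises by the brightest probe set. The promoters of these 5 genes are therefore shown. Each is the 250 bases before the start of the gene, in the direction of transcription (RefSeq, GRCh38.p14), and 8 of the 10 genes matched an entry, all but CCL2 and CCL5. Capitals mark matches, on either strand, to the NF-kB consensus or to GGGNNNNNCC, a looser pattern that contains it. The windows are chr2:227813592-227813841 (plus strand) for CCL20, chr4:76023498-76023747 (minus) for CXCL10, chr4:73740319-73740568 (plus) for CXCL8, chr4:74099196-74099445 (minus) for CXCL2 and chr4:73869143-73869392 (plus) for CXCL1.
CCL20: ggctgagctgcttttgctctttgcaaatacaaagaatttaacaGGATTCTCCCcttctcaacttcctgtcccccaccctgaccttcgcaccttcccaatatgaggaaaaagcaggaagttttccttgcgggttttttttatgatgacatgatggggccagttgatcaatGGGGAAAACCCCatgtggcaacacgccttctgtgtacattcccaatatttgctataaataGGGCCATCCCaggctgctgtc
CXCL10: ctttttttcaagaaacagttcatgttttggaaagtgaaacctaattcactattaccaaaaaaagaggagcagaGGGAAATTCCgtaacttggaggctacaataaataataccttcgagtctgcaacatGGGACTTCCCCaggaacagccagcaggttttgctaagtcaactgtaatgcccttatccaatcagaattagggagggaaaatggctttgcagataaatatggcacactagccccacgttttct
CXCL8: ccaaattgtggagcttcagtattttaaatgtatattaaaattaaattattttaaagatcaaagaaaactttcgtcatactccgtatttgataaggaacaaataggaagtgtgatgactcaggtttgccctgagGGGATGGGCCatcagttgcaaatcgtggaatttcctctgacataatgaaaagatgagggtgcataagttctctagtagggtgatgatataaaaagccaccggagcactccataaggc
CXCL2: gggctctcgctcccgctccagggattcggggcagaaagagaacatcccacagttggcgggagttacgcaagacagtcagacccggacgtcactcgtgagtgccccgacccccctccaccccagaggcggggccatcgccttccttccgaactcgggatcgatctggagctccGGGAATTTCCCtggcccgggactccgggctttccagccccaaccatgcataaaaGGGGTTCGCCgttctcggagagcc
CXCL1: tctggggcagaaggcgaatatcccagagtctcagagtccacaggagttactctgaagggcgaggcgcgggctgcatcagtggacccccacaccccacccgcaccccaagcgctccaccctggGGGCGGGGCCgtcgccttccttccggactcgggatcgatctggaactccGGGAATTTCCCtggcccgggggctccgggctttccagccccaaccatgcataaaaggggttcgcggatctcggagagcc

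The NF-kB consensus was found in 6 of the 8 promoters, those of CCL20, CXCL1, CXCL2, CXCL3, CXCL10 and CXCL11, and in 5.05% of the 27305 promoters of the table. In CCL20 the match begins 79 bases before the start and ends at 70, and in CXCL1 and CXCL3 a match has the same place. In CXCL2 it runs from 78 to 69, and CXCL10 has matches at 177 to 168 and at 122 to 113. The looser GGGNNNNNCC was in 8 of 8, but also in 53.7% of all promoters, and in CXCL8 it was the one match of either kind. Both patterns begin with GGG, so an NF-kB site that begins otherwise stays unmarked. The CXCL8 window holds tggaatttcc, which differs from the GGGAATTTCC of CXCL1 only in its first base. CXCL10 alone held GAAANNGAAA, a paired element of the kind bound by interferon regulatory factors, from 221 to 212, a pattern found in 3.07% of all promoters. TGANTCA, the pattern of AP-1, was in CXCL8 and CXCL11 (6.60% of all promoters), and TATAAA in CCL20, CXCL8 and CXCL11 (11.1%). The windows of CXCL1 and CXCL3 were identical at 81.4% of 258 alignment columns. Those of CXCL2 and CXCL3 were identical at 73.3% of 266 columns and those of CXCL1 and CXCL2 at 68.0% of 278. Columns with a gap count as not identical, so the order of these pairs also depends on gaps. Every other pair of member promoters was lower by this measure, such as CXCL1 and CXCL8 at 42.8% and CCL20 and CXCL11 at 49.8%. A match to these letters is no measure of binding, and genes with the consensus are found among those that were higher (CCL20, CXCL10, CXCL2), those that did not pass (CXCL1, CXCL3) and those not detected (CXCL11).

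The genes whose profile over the 4 arrays was most like that of CCL20 are not chemokines. Likeness was the Euclidean distance between log2 values centred on each gene's own mean. The nearest gene was PBK, a mitotic kinase, at a distance of 0.08, with 380 and 434 on the mimic arrays, against 41.4 and 44.8 on the miR-NC arrays. GLO1, which detoxifies methylglyoxal (0.22), the cytokinesis protein ANLN (0.22), cyclin A2 or CCNA2 (0.23) and the centrosomal kinase NEK2 (0.24) followed. For CXCL10 the nearest were the glycosyltransferase gene MGAT4A (0.44), the kinetochore genes SPC25 (0.47) and NUF2 (0.55), IRAK1BP1 (0.57) and SHCBP1 (0.59). Of these 5, MGAT4A came nearest to the split between the mimic arrays, with 59.7 and 82.2 there and 15.2 and 15.9 on the miR-NC arrays. A distance over 4 arrays in 2 groups mainly ranks genes by the size of their change.

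Other chemokine ligands moved in both directions. Of 30 with a single-symbol probe set, 16 were at the no-target level on all 4 arrays and 14 were tested, of which 3 were higher and 3 lower in the mimic group, with a median log2 change of -0.20 against -0.06 over all genes tested, of which 28.1% were higher and 26.9% lower. CXCL14, a chemokine that many squamous epithelia make constitutively, rose. It read 78.8 and 50.7 on the mimic arrays, against 21.6 and 20.8 on the miR-NC arrays, a log2 change of 1.58 ± 0.18 (SE, limma adjusted p = 2.91e-05). CCL17, a ligand of CCR4, rose by 0.53 ± 0.13 (adjusted p = 0.00573) and the membrane-bound ligand of CXCR6, CXCL16, by 0.34 ± 0.10 (adjusted p = 0.0157). CCL26, the eosinophil attractant eotaxin-3, fell by 0.58 ± 0.11 (adjusted p = 8.45e-04), CCL25 by 0.31 ± 0.12 (adjusted p = 0.0458) and CCL22 by 0.27 ± 0.10 (adjusted p = 0.0327). With the mean of its probe sets CXCL14 was at 0.71. The call of CCL17 was lost without mimic replicate 2 (0.47) and those of CCL22, CCL25 and CXCL16 without mimic replicate 1 (-0.24, -0.31 and 0.27), mimic replicate 2 (-0.31, -0.31 and 0.42) or control replicate 1 (-0.19, -0.25 and 0.26), while those of CXCL14 and CCL26 held without any 1 array. Set to the poly(A) spikes, 1 of the 14 was higher and 10 were lower, with CXCL14 at 1.23.

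Most receptors of these ligands gave little signal in SCC-9 cells. Of 21 receptor genes with a single-symbol probe set, 15 were at the no-target level on all arrays, among them CCR6, the receptor of CCL20, and CXCR1 and CXCR2, the receptors of CXCL8. The same held for CCR1 and CCR2, which bind CCL5 and CCL2. Of the 6 that were tested, 0 were higher and 1 was lower, beside 28.1% higher and 26.9% lower over all genes tested. The lower one was ACKR1, a decoy receptor that binds many chemokines without signalling. ACKR1 read 35.8 and 32.4 on the mimic arrays, against 47.6 and 48.9 on the miR-NC arrays. Its log2 change was -0.50 ± 0.12 (SE, limma adjusted p = 0.00403), and the call was lost without mimic replicate 2 (-0.43). Without control replicate 2 the count of lower receptors was 2, and with the poly(A) spikes it was 6. CCR10, a receptor of CCL28, and CXCR3, the receptor of CXCL10, were measured and did not pass. CCR10 read 50.5 and 49.97 on the mimic arrays, against 53.0 and 54.6 on the miR-NC arrays, and CXCR3 read 29.5 and 32.0 on the mimic arrays, against 38.6 and 27.5 on the miR-NC arrays.

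Inducers of these chemokines and the feedback genes of NF-kB changed in both directions. Of 20 tested, 8 were higher and 4 lower, beside 28.1% higher and 26.9% lower over all genes tested, with a median log2 change of 0.07. TNFAIP3, a ubiquitin-editing enzyme that NF-kB induces and that restrains it, read 798 and 921 on the mimic arrays, against 224 and 342 on the miR-NC arrays, a log2 change of 1.63 ± 0.15 (SE, limma adjusted p = 6.30e-06). NFKBIZ, a nuclear cofactor of NF-kB, rose by 0.50 ± 0.08. The adhesion molecule ICAM1, often used as a marker of NF-kB activity, fell by 0.81 ± 0.13, and IL17RA, a receptor chain whose ligands induce CCL20 and CXCL8 in epithelia, fell by 0.61 ± 0.09. With the mean of its probe sets ICAM1 was at -0.37. The cytokine IL1A, a strong inducer of these chemokines that is named after its values were seen, read 1700 and 1824 on the mimic arrays, against 1370 and 1583 on the miR-NC arrays (0.26 ± 0.07, limma adjusted p = 0.00805). Without mimic replicate 2 the list had 5 higher and 2 lower, and with the poly(A) spikes 1 higher, TNFAIP3, and 9 lower. Without mimic replicate 1 it had 6 higher and 2 lower. After a second quantile normalization the list had 7 higher and 8 lower. Members of this list thus moved both with and against the chemokines that were higher.

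Genes of interferon signalling and of the interferon response, taken as 1 list, rose in part. Of 16 tested, 8 were higher and 2 lower, beside 28.1% higher and 26.9% lower over all genes tested. Their median log2 change was 0.43, against -0.06 over all genes tested. The signalling genes IFNGR1 and IFNAR1 were among the higher and JAK1 among the lower, so these values are not of response genes alone. The RNA sensor RIGI read 80.4 and 76.1 on the mimic arrays, against 36.9 and 38.2 on the miR-NC arrays (1.06 ± 0.11, limma adjusted p = 1.10e-05). IFIT1, an interferon-induced RNA-binding protein, rose by 1.03 ± 0.11, the GTPase MX1 by 0.91 ± 0.15 and the interferon gamma receptor chain IFNGR1 by 0.58 ± 0.05. MX1 exceeded the no-target controls on only 1 of the 2 miR-NC arrays. CXCL9, a CXCR3 ligand that is induced by interferon gamma like CXCL10, read 13.4 and 12.8 on the mimic arrays, against 14.5 and 15.7 on the miR-NC arrays and did not pass. CXCL9 exceeded the no-target controls on 0 mimic arrays and 1 miR-NC array, so its values are at background and give no size. The count of lower genes was 1 without mimic replicate 1 and likewise without mimic replicate 2, and with the poly(A) spikes 4 were higher and 3 lower. The interferon genes IFNB1 and IFNL1 were at the no-target level on all arrays. Of these 16 genes 5 were higher on the second mimic array than on the first, against 44.4% of all genes tested. CXCL10 was higher on the second, and nothing is read from this count.

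**Figure D5:**
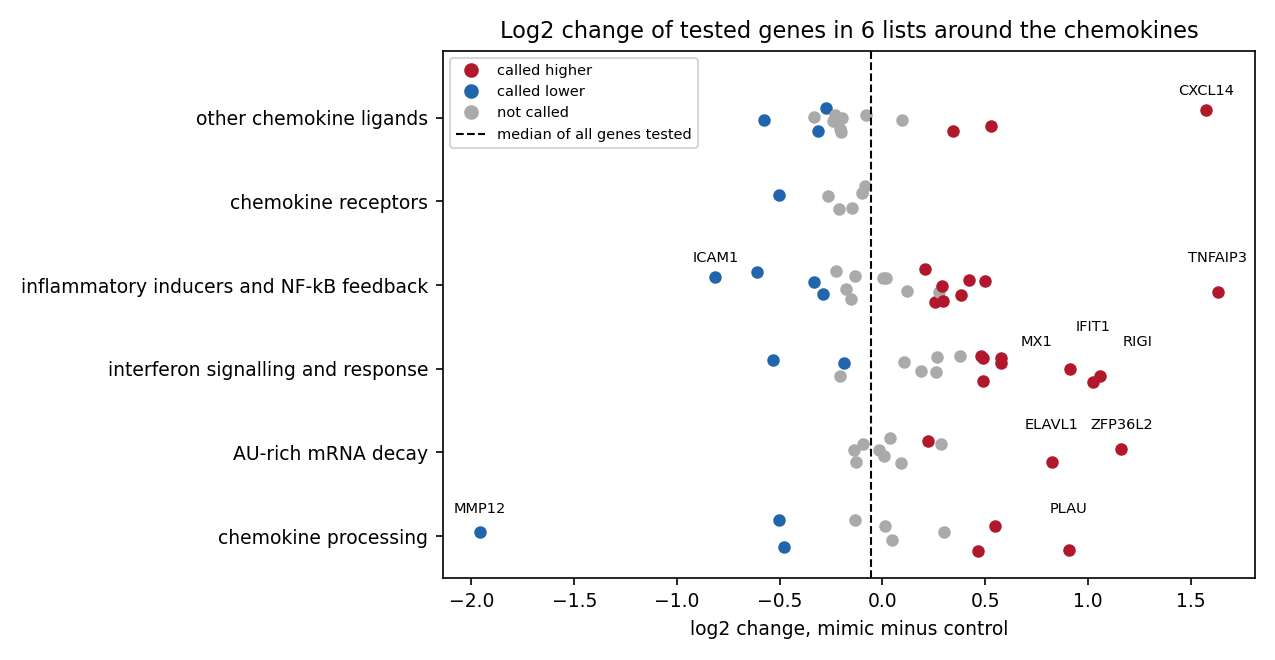
Log2 change, mimic minus miR-NC, of each gene tested in 6 lists around the chemokines (1 row per list, shifted up or down at random so that points can be seen), coloured by its call at a limma adjusted p of 0.05, with the median of all genes tested as a dashed line. CXCL14 (1.58) and TNFAIP3 (1.63) lie farthest to the right, and the receptor row holds no gene called higher. The point of MMP12 is its fitted value, since the gene was not detected on the mimic arrays.

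Among 11 regulators of AU-rich messenger RNAs tested, 3 were higher and 0 lower, beside 28.1% higher and 26.9% lower over all genes, with a median log2 change of 0.04. ZFP36L2, which binds AU-rich elements and recruits the decay machinery, rose by 1.16 ± 0.06 (SE, limma adjusted p = 5.28e-08), and ELAVL1, which binds the same elements and stabilises transcripts, by 0.82 ± 0.07 (adjusted p = 2.94e-06). RC3H2, a relative of roquin that acts on stem-loops, rose by 0.22 ± 0.07 (adjusted p = 0.0251), a call lost without mimic replicate 2 (0.16) and with the mean of its probe sets (0.00), and its direction turned with the poly(A) spikes (-0.13). The 3 genes that rose do not act in one direction on such transcripts. With the poly(A) spikes 2 were higher and 7 lower.

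Of 10 genes for proteins that cut chemokines or free them from the cell surface, 3 were higher and 3 lower. This is close to the 28.1% higher and 26.9% lower over all genes tested, and nothing is read from the count. The urokinase gene PLAU rose by 0.91 ± 0.06 and the sheddase ADAM10, which releases CXCL16, by 0.55 ± 0.12 (SE; limma adjusted p = 5.88e-07 and 0.00290). MMP14, a membrane metalloproteinase, fell by 0.51 ± 0.05 (adjusted p = 9.15e-06). The macrophage elastase gene MMP12 read 7.41 and 8.15 on the mimic arrays, within the no-target level, and 32.3 and 28.3 on the miR-NC arrays, and was at least 2.07-fold lower in the mimic group. The call of ADAM10 was lost without mimic replicate 2 (0.47), and the counts were 2 higher and 2 lower there, and 1 higher and 6 lower with the poly(A) spikes.

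Markers were read to see which cells the RNA came from. All 6 squamous keratinocyte markers with a probe set were above the no-target controls on every array, and their summed intensity ranged from 19659 to 20676 on the mimic arrays and from 18195 to 18667 on the miR-NC arrays, with 3 higher and 3 lower. Beside this and the marker counts below stand 28.1% higher and 26.9% lower over all genes tested. The basal keratin KRT14 rose by 0.97 ± 0.05, and the integrin chain ITGB4, the desmosomal cadherin DSG3 and the epithelial adaptor gene SFN fell by 1.11 ± 0.07, 0.45 ± 0.07 and 0.42 ± 0.04 (SE). Of 11 leukocyte markers with a probe set, 5 were at the no-target level on all arrays, among them PTPRC, the pan-leukocyte antigen, at 3.69 and 3.56 on the mimic arrays, against 3.94 and 3.85 on the miR-NC arrays. Their sum ranged from 256 to 293 on the mimic arrays and from 264 to 276 on the miR-NC arrays. Of 6 tested, 1 was higher, the lipopolysaccharide receptor CD14 at 0.68 ± 0.12 (SE, limma adjusted p = 6.85e-04), and 2 were lower. These were the macrophage receptor gene CSF1R at -0.39 ± 0.13 (adjusted p = 0.0284) and AIF1, at least 1.26-fold lower and not detected on the mimic arrays. The call of CSF1R was lost without mimic replicate 1 (-0.36), without mimic replicate 2 (-0.42) and without control replicate 2 (-0.33), and that of AIF1 (adjusted p = 0.0457) when any array but control replicate 2 was left out. Of 10 fibroblast and endothelial markers 5 were at the no-target level, and their sum ranged from 182 to 202 on the mimic arrays and from 220 to 233 on the miR-NC arrays. Of 5 tested, 0 were higher and 1 was lower, the endothelial receptor gene KDR, which read 49.97 and 36.5 on the mimic arrays, against 74.2 and 67.9 on the miR-NC arrays (-0.73 ± 0.15, limma adjusted p = 0.00152). The part of these markers in the chemokine values was not tested. In RNA from a whole culture, fewer cells that express a gene and less RNA of it per cell cannot be told apart.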

How the data were processed

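Total RNA of SCC-9 cells was read on 4 PrimeView arrays, and the values used are the deposited intensity values per probe set, made with RMA per the submitters' processing notes. RMA corrects background and brings the arrays to 1 distribution, so a shift of the whole transcriptome is not visible, and averages the probes of a set. The deposited values run from 2.09 to 17329, so they were read as linear and their log2 was taken. Of 49395 probe sets, 44988 have 1 gene symbol in the platform annotation, 1832 several and 2473 none here, and only those with 1 were used for genes.

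Groups came from the sample titles. Each gene was read through the probe set that was brightest over all 4 arrays, and those brighter on average than the 30th percentile (intensity 12.0) went into limma 3.58.1 under R 4.3.3 (lmFit, then eBayes with a trend, 2 residual and 8.35 prior degrees of freedom), two-sided, with Benjamini-Hochberg adjustment over all genes. The fit was tested on simulated data. Intensities carry SDs and log2 changes SEs. A bound ("at least") sets the mean of the detected group against, on each array, the higher of the brightest of the 20 no-target probe sets and the gene's own value. Members and lists were chosen with earlier results of these data known. Every member is described, the up to 4 called genes of each other list with the largest change and every called ligand and receptor are named, and the 5 genes nearest to CCL20 and to CXCL10 are given, with further names chosen after seeing values. Alternatives were other scalings, filters, probe set choices, variance models and thresholds, the replicate number as a block, and leaving out each array.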

Additional observations from a re-analysis of the deposited data

How the results depend on the processing

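Over 17 settings, CCL20, CXCL10, CXCL8 and CXCL2 kept a higher mean in the mimic group, from 2.93 to 3.38, 1.90 to 2.89, 0.42 to 1.69 and 0.48 to 1.01 on the log2 scale, and CCL2 kept its direction. CXCL8 depended on the probe set and CXCL10 on the mimic array. The 0.42 of CXCL8 comes from a dim probe set that was not above the no-target controls on every array. Over all genes, 7768 passed, and 17592 of 34508 probe sets when each was tested. Higher and lower counts were 3966 and 3802, against 9332 and 8260 for every probe set and 1613 and 8198 with the poly(A) spikes. Leaving out 1 array gave 5406 to 8128 genes, 2897 to 4087 higher and 2509 to 4041 lower, the lowest without mimic replicate 2. With the poly(A) spikes CXCL16 turned to -0.0036 and RC3H2 to -0.13. With the replicate block 8252 genes passed (4132 higher, 4120 lower). Deviations of same-numbered arrays correlated at 0.0848. That value cannot decide whether they share a batch or culture, and the labels do not say. Among the named genes outside the 10, a call was lost in 41 pairs of a gene and a setting, 0 of them under the block, and turned in the 2 given. Signal over background limits CCL2, CCL5, CCL28 and CXCL11, and 2 arrays per group limit every SE.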
